A study of Drosophila melanogaster with 4 samples.

Results

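Isolated narrow TCF peaks are places on the large autosomal arms of Drosophila melanogaster where a single short stretch of chromatin was recovered with an antibody to TCF, with no other peak close by. They were selected by position and width from the authors' peak list. Peaks on 2L, 2R, 3L and 3R were kept where the gap to the previous and to the next peak was over 5000 bp and the width was under 1500 bp. Of the 3930 peaks on these 4 arms, 1096 (27.9%, 95% exact Clopper-Pearson interval 26.5 to 29.3) met the rule, out of 4589 peaks in the whole list. A peak at the end of an arm has 1 neighbour, and its missing side was taken as free, which applied to 3 members.

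TCF is the fly protein of the TCF/LEF family and is encoded by pangolin. Its HMG domain binds short DNA sites, and a second domain, the C-clamp, reads a helper site nearby. Without Wingless signal TCF sits on target genes with the corepressor Groucho. When the signal arrives, Armadillo, the fly beta-catenin, joins TCF and the genes are transcribed. Wingless target genes in the embryo include segment polarity and patterning genes, and regulatory elements bound by TCF can lie in promoters, in introns or far from any gene.

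ChIP-seq, in which chromatin is cross-linked, enriched with an antibody and its DNA sequenced, was run on whole embryos labelled 0 to 8 h. There were 2 ChIP libraries and 2 input libraries, which are chromatin DNA that was not enriched. All came from the strain Y cn bw sp, and ChIP and input shared its genotype. This carries the body and eye colour alleles y[1], cn[1] and bw[1] with sp[1], as well as Gr22b[1] and Gr22d[1], CG33964[R4.2], LysC[1] and MstProx[1], GstD5[1] and Rh6[1], lab[R4.2] and oc[R3.2]. The sex was labelled as unknown, and the antibody was a crude rabbit polyclonal serum against the N-terminus of TCF. The collection protocol of all 4 libraries describes an 8 to 16 h laying, which goes against the stage label, so the embryo age behind every value is uncertain. Whether the replicates are separate collections is not said in the labels.

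All libraries stand behind 1 list, so no value below has a replicate error, read depth is unknown, and no ChIP library was compared with an input library. In whole embryos, binding in more cells and stronger binding per cell cannot be told apart. The rule used gaps and widths, and the score of a peak goes with its width, so scores of members and of other peaks are described here and were not tested against each other. Intervals are for counting error only and treat peaks as independent.

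Most isolated narrow peaks were weak, as were most peaks on these arms. The authors' score had a median of 16.6 (95% order-statistic interval 15.93 to 17.61), an interquartile range of 11.3 to 32.5 and a range of 6.24 to 631.91. The scores follow -log10 of a Poisson tail with an expected pileup of 71.7 reads or fragments, and on that scale 1031 of the 1096 members have an implied pileup, known to within 1. The implied pileup over the expectation, called the implied fold here, was 2.15 at the median, with an interquartile range of 1.91 to 2.70 and a range of 1.63 to 12.6. The lowest implied pileup of a member was 117, next to 116 as the lowest in the whole list, so the weakest members lie at the edge of what the authors' calling let through.

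Strong members were few. An implied fold of at least 3 was found in 190 members (18.4% of those with a value, exact interval 16.1 to 20.9), where 19.7% of all peaks on the 4 arms reached it. At least 5 was found in 35 members (3.39%, interval 2.38 to 4.69), where 5.49% of all peaks did. Under 2 were 374 members (36.3%), and 39.7% of all peaks on these arms. The members' share was thus close to that of all peaks at 3-fold and below it at 5-fold. Of the other narrow peaks, 12.0% (exact interval 10.7 to 13.3) reached 3-fold, fewer than of members. At 5-fold it was 2.13% (1.58 to 2.80), an interval that overlaps that of members. Peaks at or over the width limit, which the rule leaves out, reached 5-fold more often, as in 40.8% of the 71 isolated ones. For the remaining 65 members (5.93%) the score matched no step and no fold is given. That share was 5.92% among the other narrow peaks on these arms.

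Members made up 27.8% of the 1000 highest-scoring peaks on the 4 arms, near their share of all peaks, and a smaller part of the very top. They held 116 of the top 500, 49 of the top 250 and 11 of the top 100. Peaks of 1500 bp or more, which the rule leaves out, held 67 of these top 100, and narrow peaks with a near neighbour held 22. Those narrow peaks held 432 of the top 1000, 167 of the top 500 and 68 of the top 250. Among all narrow peaks on the 4 arms, 30.5% were members. The top 50 held 3 members, 13 other narrow peaks and 34 wide peaks, and the top 25 held 1, 7 and 17. Whether the low share at the very top comes from the width limit was not tested. Members covered 615 kb in all, or 21.8% of the sequence under peaks on the 4 arms.

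**Figure D1:**
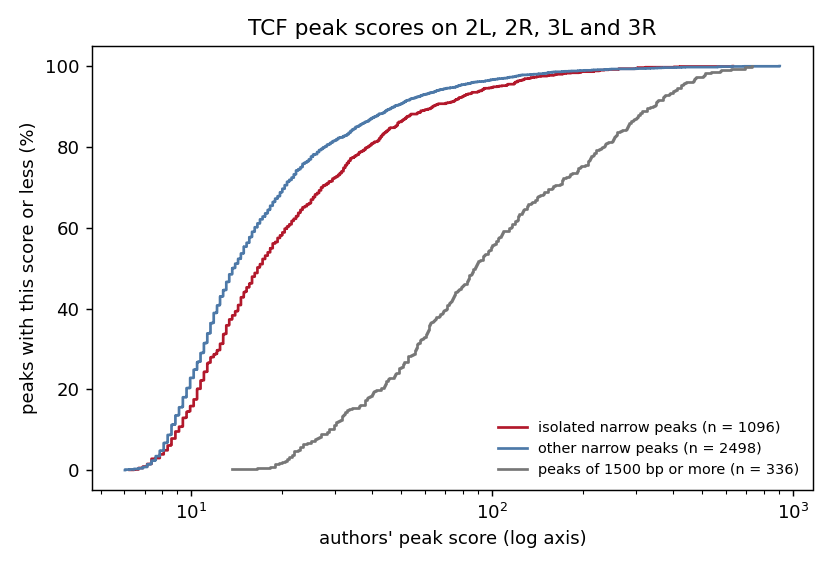
Cumulative share of peaks (%, vertical axis) at or below each authors' score (horizontal log axis) for the 1096 isolated narrow peaks, the 2498 other narrow peaks and the 336 peaks of 1500 bp or more on 2L, 2R, 3L and 3R. The curve of the isolated narrow peaks runs to the right of the other narrow peaks, with medians of 16.6 and 13.7, and both lie far to the left of the wide peaks.

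The strongest isolated narrow peak, with a score of 631.91, was on 3L at 21872546 to 21874015 and ranked 5 in the whole list. Its implied fold was 12.6 (95% exact Poisson interval 11.8 to 13.4), its width was 1470 bp, and its neighbours began 9.36 kb and 48.5 kb away. It stood well above the next member. That one, on 3L at 603607 to 604898, scored 421.50 with an implied fold of 9.76 (9.05 to 10.5), and ranked 30. Then came 3R 13219695 to 13221156, which scored 402.80 with a fold of 9.49 (8.79 to 10.2). The intervals of these latter peaks overlap, and both lie below that of the strongest.

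The next member by score combined strength with distance. It lay on 3R at 15453152 to 15454317, scored 323.01 with a fold of 8.32 (7.67 to 9.02), and no other peak was called within 158.6 kb on either side. Then came 3 members on 3L with nearly equal scores, at 7126834 to 7128167 (304.74), 16654448 to 16655643 (303.83) and 3460331 to 3461414 (301.13), with folds of 8.04, 8.03 and 7.99. The last of the 10 strongest were 2L 1736746 to 1737527 (264.76, fold 7.42), 3R 11168243 to 11169611 (262.14, fold 7.37) and 2L 7632526 to 7633429 (244.10, fold 7.08). Of these 10 members, 5 lay on 3L, 3 on 3R and 2 on 2L, arms that hold 279, 302 and 260 of the 1096 members. So few peaks cannot show a preference for an arm. The next member on 2L, at 1119070 to 1119984, scored 235.63.

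The strongest member on 2R was weaker than the leaders of the other arms. It lay at 3344235 to 3345245, ranked 128 and scored 217.44, a score that matched no step of the scale. The next on this arm, at 19083442 to 19084443 and 14117280 to 14118309, scored 197.05 and 194.65, with folds of 6.29 (5.72 to 6.90) and 6.25 (5.68 to 6.85). Their intervals overlap almost wholly.

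The weakest members were also among the shortest. The lowest score, 6.24, belonged to a peak of 201 bp on 3L at 16773354 to 16773554, with an implied fold of 1.63 (1.35 to 1.95). It was followed by 3R 19616125 to 19616377 at 6.46, and by 3L 22996985 to 22997185, 2R 15817940 to 15818162 and 2R 7381680 to 7381915, each at 6.68. A width of 201 bp is the shortest in the whole list, and 20 members had it (1.82%), next to 2.48% of the other narrow peaks. These 20 members scored between 6.24 and 15.54, with a median of 9.62. The 5 with the lowest scores among them include 2 already given and those on 3L at 21935273 to 21935473, 3R at 11093537 to 11093737 and 3L at 818671 to 818871, the last with a score of 8.35.

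Wider members had higher scores. Spearman's rho was 0.77 across the 1096 members and 0.78 across the 2498 other narrow peaks, whose values share the same libraries. The median score of members was 10.2 at widths up to 250 bp, 13.1 at 251 to 500 bp, 25.2 at 501 to 750 bp, 36.1 at 751 to 1000 bp, 45.8 at up to 1250 bp and 57.4 above that. A wide member was not always strong. The widest, on 3R at 23069449 to 23070937, spanned 1489 bp and scored 50.60, and the next, on 2L at 12894022 to 12895505, spanned 1484 bp and scored 62.88. Next in width was the strongest member of all, on 3L. The others of the 5 widest, 2L 15721722 to 15723190 and 3L 11554016 to 11555480, scored 52.15 and 74.88.

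At equal width, the isolated peaks had the higher median score in each of the 6 width classes. The gap was widest at 501 to 750 bp, where 250 members had a median of 25.2 (95% order-statistic interval 22.3 to 28.3) and 496 other narrow peaks had 16.6 (15.86 to 17.6). At 251 to 500 bp the medians were 13.1 (12.47 to 13.38) and 11.6 (11.59 to 11.88). At 751 to 1000 bp they were 36.1 (29.9 to 44.6) and 27.8 (25.4 to 30.8). The intervals were apart at 251 to 500 bp and at 501 to 750 bp and overlapped in the other 4 classes, where isolated and other narrow peaks are not separated. Over all scores the median width was 482 bp for members and 463.5 bp for other narrow peaks. Within classes of implied fold the order turned. The medians were 286.5 and 299 bp under 2-fold, 558 and 614 bp at 2 to 3, 893 and 1049 bp at 3 to 5, and 1140 and 1263.5 bp from 5 upwards. The rule used width, so these widths are a description.

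**Figure D2:**
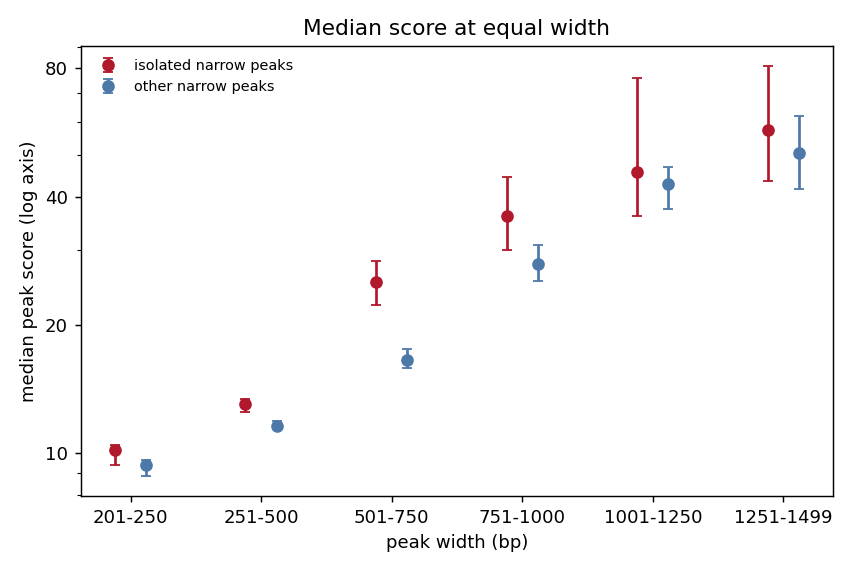
Median authors' score (vertical log axis) of isolated narrow peaks and of other narrow peaks in 6 classes of peak width (bp, horizontal axis), with bars for the 95% order-statistic interval of each median. The medians of isolated peaks lie above in every class, and the intervals are apart in the 251 to 500 and 501 to 750 bp classes and overlap in the other 4.

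Narrow peaks differed in score by how many peaks stood in their group, where a group is a chain of peaks joined by gaps of at most 5000 bp and a member is a group of 1. The median score was 16.6 for members, 14.95 for the 703 narrow peaks in pairs, 14.0 for the 836 in groups of 3 to 4, 12.8 for the 685 in groups of 5 to 9 and 13.4 for the 274 in groups of 10 or more. The share with an implied fold of at least 3 was 18.4%, 14.7%, 12.5%, 9.80% and 8.75% in the same order. Intervals of neighbouring classes touch or overlap. Those of members are apart, in both measures, from those of groups of 3 to 4, of 5 to 9 and of 10 or more. The wide peaks run the other way. They made up 6.08% of isolated peaks and 16.7% of peaks in groups of 10 or more, and with all widths kept the medians were 17.96 for isolated peaks and 15.6 in those groups. The best peak of a group had a median score of 25.4 in pairs and 221 in groups of 10 or more, where the maximum is taken over more peaks. At the median, a member was above a narrow peak of a group and below the group's best peak.

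**Figure D3:**
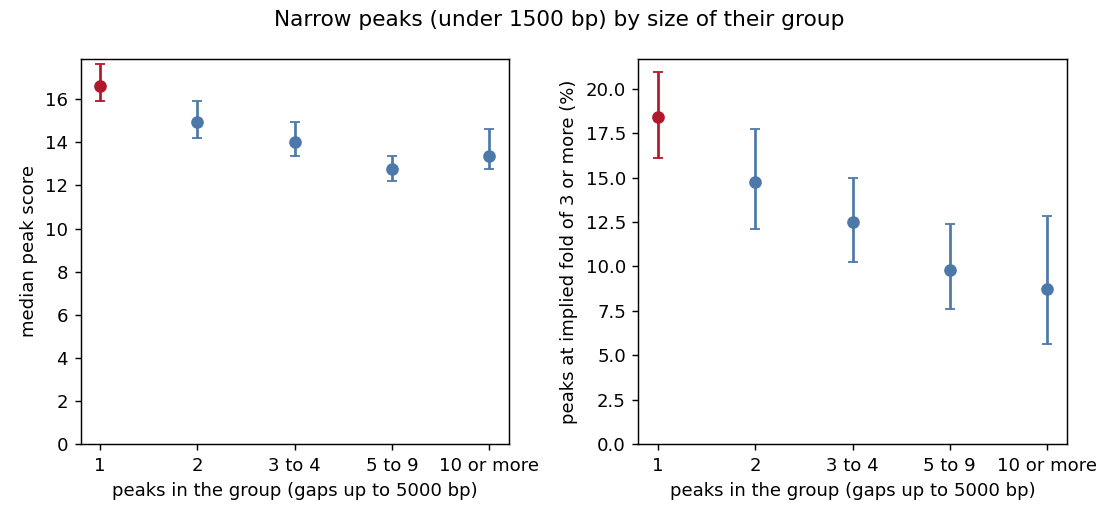
Median authors' score (left, vertical axis, with 95% order-statistic intervals) and share of peaks with an implied fold of at least 3 (right, %, with 95% exact intervals) for narrow peaks by the number of peaks in their group (horizontal axis). Isolated peaks, the groups of 1, stand highest in both panels at 16.6 and 18.4%, and the share is 8.75% in groups of 10 or more.

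The number of members per Mb was similar on the 4 arms. Members numbered 260 on 2L, 255 on 2R, 279 on 3L and 302 on 3R, which is 26.9%, 28.3%, 28.2% and 28.2% of the peaks of each arm. Their density was 11.4 per Mb on 2L (95% exact Poisson interval 10.1 to 12.9), 12.1 on 2R (10.6 to 13.6), 12.0 on 3L (10.6 to 13.4) and 10.8 on 3R (9.64 to 12.1), with the arm length taken as the end of its last peak. All 4 intervals overlap. Median scores also lay close together, at 17.6 on 2L (15.5 to 20.1), 16.9 on 2R (14.95 to 19.4), 15.9 on 3L (14.6 to 18.7) and 16.9 on 3R (15.3 to 17.96). On each arm the median of members was above that of other narrow peaks, by 3.92 on 2L, 3.17 on 2R, 1.61 on 3L and 3.27 on 3R.

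**Figure D4:**
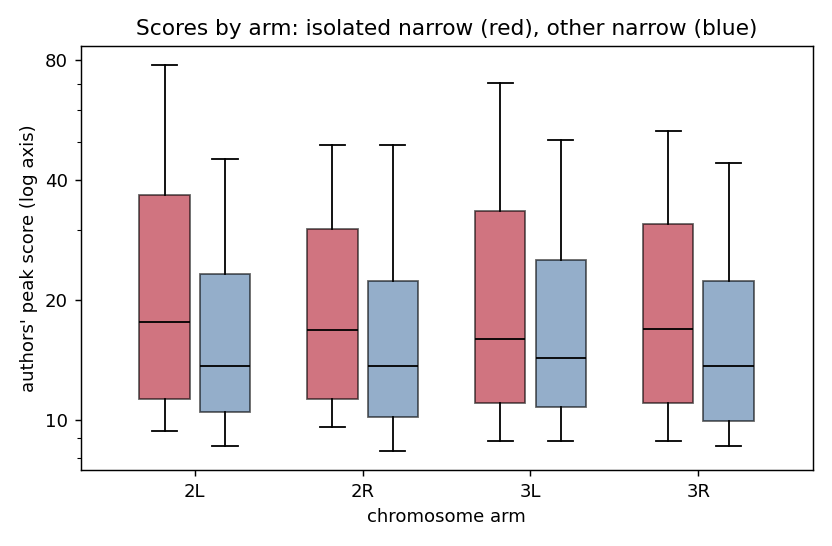
Authors' score (vertical log axis) of isolated narrow peaks (red) and other narrow peaks (blue) on each of the 4 arms (horizontal axis). Boxes give the quartiles with the median as a line, and whiskers run from the 10th to the 90th percentile. The red medians lie between 15.9 and 17.6 and the blue between 13.7 and 14.3, and the boxes overlap widely on every arm.

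Members were found in every full window of 1 Mb. The 93 full windows of 1 Mb held between 2 and 21 members, with a median of 12 and an interquartile range of 8 to 14. All peaks ran from 4 to 99 per window, with a median of 40. The SD of the counts over their mean was 0.35 for members and 0.43 for all peaks, but counting error weighs more on the lower counts of members. The variance of the counts over their mean was 1.45 for members and 7.84 for all peaks. The gap rule itself keeps members apart. Windows with more of the other peaks also tended to hold more members (Spearman's rho 0.44 across the 93 windows, which share their libraries). The fullest window was 7 to 8 Mb on 2L with 21 members among 59 peaks, and the emptiest was 17 to 18 Mb on 2L with 2 among 16. In the first Mb of 2R all 4 peaks were members. These windows were picked after their values were seen.

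Isolation covered a wide range of distances. The smaller of a member's 2 gaps had a median of 13.8 kb (interquartile range 8.04 to 25.9 kb) and the larger a median of 46.4 kb. The peak-free stretch around a member, the member included, had a median of 64.4 kb and reached 786 kb. The nearer neighbour lay within 10 kb for 394 members (35.9%), while 28 members (2.55%) had none within 100 kb.

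Among members, score and distance from the nearer peak showed almost no rank correlation. Spearman's rho between score and the smaller gap was -0.013 across the 1096 members. The median score was 17.3 (95% order-statistic interval 15.9 to 19.4) for the 394 members with a gap up to 10 kb and 14.6 (12.5 to 18.3) for the 63 with a gap of 50 to 100 kb. The 28 members beyond 100 kb had a median of 22.4 (13.4 to 42.2), and these 3 intervals overlap. An implied fold of at least 3 was reached by 19.5% (exact interval 15.6 to 23.9) at gaps up to 10 kb. The share was 16.9% at 10 to 20 kb, 16.5% at 20 to 50 kb and 21.7% at 50 to 100 kb. Beyond 100 kb it was 32.1% (15.9 to 52.4), next to 19.7% of all peaks on the 4 arms. So few members beyond 100 kb leave a difference there undecided. Median widths were 506.5 bp for gaps up to 10 kb, 364 bp for gaps of 50 to 100 kb, and 432.5 bp beyond 100 kb.

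**Figure D5:**
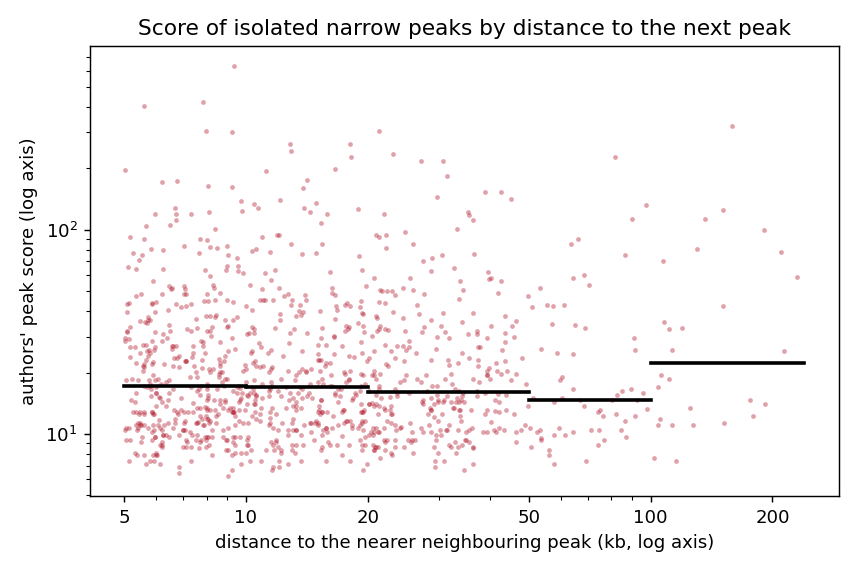
Authors' score (vertical log axis) of each of the 1096 isolated narrow peaks against the distance to the nearer neighbouring peak (kb, horizontal log axis). Black lines give the median score in each distance class, from 17.3 at 5 to 10 kb to 14.6 at 50 to 100 kb and 22.4 beyond 100 kb, and strong and weak peaks occur at every distance.

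Ranked by the smaller of the 2 gaps, the most isolated member lay on 3L at 2115677 to 2116081, alone in a stretch of 553 kb. It was 405 bp wide, with a score of 59.05 and an implied fold of 3.47 (3.05 to 3.93), and its nearer neighbour was 230 kb away. A pair of members on 2L followed each other through a sparse region. That at 14843531 to 14844012, with a score of 25.41, had gaps of 215.8 kb and 213.1 kb, and that at 15057114 to 15057864, with a score of 14.00, had gaps of 213.1 kb and 191.6 kb. The remaining members of the 5 most isolated by this measure had higher scores. On 2L at 4597327 to 4598155 the score was 77.84 and the fold 3.93 (3.49 to 4.42), with 210 kb to the nearer peak. On 3L at 7711512 to 7712180 they were 99.60 and 4.42 (3.95 to 4.93), with 191 kb.

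The peak next to a member was most often another member. This was so for the nearest peak of 638 members (58.2%, exact interval 55.2 to 61.2), which the gap rule favours, since members are by choice where peaks are sparse. The nearest peak was a grouped narrow peak for 386 members (35.2%), and such peaks are 63.6% of all peaks. It was an isolated wide peak for 34 (3.10%, next to 1.81% of all peaks) and a grouped wide peak for 38 (3.47%, next to 6.74%). Only the end peaks of a group can be nearest to a member. The rule thus shapes all 4 of these shares, and the shares of all peaks are not expected values for them. Whether the strength of a member goes with that of its neighbour was not tested. Next to an isolated wide peak, whose median score was 123, the members' median was 20.5, and next to a grouped wide peak, with a median of 76.7, it was 16.3. Next to another member it was 16.9, and next to a grouped narrow peak it was 16.4. Spearman's rho between a member and its nearest peak was -0.0023 across the 1096 members, some of which enter as each other's neighbour. The nearest peak had the higher score for 553 members (50.5%).

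Members followed one another in 463 unbroken runs. Of these, 203 held a single member, while 56 runs of 5 or more held 349 members (31.8%). The longest runs had 10 members each. They lay on 2L from 7619209 to 7985679 with scores from 8.86 to 244.10, on 2R from 15343704 to 15866743 (6.68 to 73.12) and from 19955696 to 20691044 (11.59 to 77.25), and on 3L from 12129542 to 12479782 (9.38 to 76.06). Scores within each of these runs thus spanned a wide range, and of these 4 only the run on 2L held a member with a score above 100. Of the 746 windows of 100 kb that held a peak, 612 held a member, and in 236 all peaks were members.

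Peaks close to the thresholds were as follows. The member with the smallest gap, 5019 bp, was the peak on 2R at 19083442 to 19084443 with its score of 197.05. Then came a pair of members on 3R with 5028 bp between them, at 671850 to 673128 and 678157 to 678508, with scores of 29.50 and 10.46. Just outside were 3L 18341824 to 18342916, with a gap of 4999 bp and a score of 38.83, and a pair on 2L, 22139968 to 22140374 and 22145367 to 22145975, with 4992 bp between them and scores of 14.63 and 14.32. The 100 members nearest the gap threshold had a median score of 20.8 (95% order-statistic interval 16.6 to 25.01) and a median width of 558.5 bp. The 100 narrow peaks nearest it from the other side, with gaps of 4.28 kb to 4.999 kb, had 14.8 (13.1 to 17.6) and 440.5 bp. These intervals overlap. Just over the width limit lay isolated peaks of 1506 bp on 2L at 1006967 to 1008472 (score 213.22) and on 2R at 5369200 to 5370705 (73.70), and one of 1513 bp on 3L at 20623006 to 20624518 (254.37). In all, 71 isolated peaks were too wide to be members, with a median score of 87.6 and a median implied fold of 4.15.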

How the data were processed

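The authors deposited 1 peak list for the series, with a start, an end and 1 score per peak. The score has no name or scale. Per the file headers, positions are on FlyBase release 5, and the source column names MACS. The submitters' processing notes list BWA, MACS2, BDGP5 and CASAVA in versions 1.7.0.2 and 1.7.0.3 with no role for any of them. How reads were filtered, whether replicates were pooled and which threshold was set is not given in the sources used here. A higher threshold would remove weak neighbours and so change which peaks count as isolated.

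Gaps, widths and classes were computed from the list. Expected pileups from 1 to 400 were searched for the value at which most scores equal -log10 of a Poisson upper tail at a whole-number pileup, within 0.01. At 71.7316, 4345 of 4589 scores (94.7%) matched, against 33.6% for the best value at least 1% away. Implied folds use that single expectation for every peak, with no local input. No test was run. The rule, the classes and the named peaks were chosen with earlier results of these data known. Named peaks are the 10 highest scores, the 3 highest per arm, the 5 most isolated (by the smaller gap), narrowest (ties by the lower score), widest and weakest members, and the 3 nearest each threshold. Because the gene table used here is on release 6, no gene or sequence was assigned to a peak, and planned motif and gene counts were not run. Functions were tested on simulated data. The tools were matplotlib 3.10.9, pandas 2.3.3, SciPy 1.17.1, NumPy 2.4.6 and Python 3.11.15.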

Additional observations from a re-analysis of the deposited data

How the results depend on the processing

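Of 31 values under alternatives, 25 stayed within the interval of the main value or, for the number of members, within 1.5 times of it. Some alternatives, such as leaving out the first and last peak of an arm (1093 members), could change little. Only the differences in median score could change sign, and none did. With gaps over 10000 bp there were 702 members, and with gaps measured among the 25% of peaks with the highest score there were 535. The median score of members was 14.95 at widths under 1000 bp and 17.96 with no width limit, and, by construction, it was 31.2 for members in the upper 50% of all scores and 53.2 for those in the upper 25%. The difference in median score between members and other narrow peaks was 2.88. Its interval, 1.61 to 4.23, was taken from the opposite ends of the intervals of both medians. The difference lay between 1.94 and 4.15 under the gap, width, width-class and arm alternatives, all of which kept its direction. No paired analysis was possible because no value belongs to a single library, and no replicate could be left out for the same reason. The planned motif and gene counts were not run. Library depth is unknown, so a peak-free stretch cannot be read as free of TCF, and a peak may count as isolated because a weaker neighbour was not called.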

Other observations

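The same rule applied outside the large autosomal arms gave 226 isolated narrow peaks on X and 28 on chromosome 4. They made up 47.2% of the 479 X peaks (95% exact interval 42.6 to 51.8) and 20.7% of the 135 on chromosome 4 (14.2 to 28.6), next to 27.9% on the large autosomal arms. A fixed gap rule lets a smaller share pass where peaks lie closer together. Peaks per Mb on X and chromosome 4 were not compared with those on the large arms, so these shares show no preference for a chromosome. On X their median score was 19.0 (95% order-statistic interval 16.3 to 22.7) and that of the other narrow X peaks was 17.96 (16.6 to 20.1), intervals that overlap. On chromosome 4 the medians were 14.5 (11.0 to 18.3) and 13.1 (12.2 to 14.3). The copy number of X was not taken into account.

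A score of at least 100 was reached by 58 members (5.29%), by 3.36% of the other narrow peaks and by 7.43% of all peaks on the 4 arms. Of the 58 members, 9 were under 800 bp wide, a choice made after the values were seen. The shortest lay on 2L at 16859069 to 16859646, 578 bp wide, with a score of 112.79 and gaps of 136 kb and 335 kb. Of these 9 peaks, 5 lay on 2L, which holds 260 of the 1096 members, and so few picked peaks cannot show a preference for an arm. No member of 1000 bp or more scored under 15.

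The share of members among all peaks varied along the arms. With each arm cut into 5 equal parts, it ran from 17.4% in part 1 of 2L, where 39 of 224 peaks were members, to 36.3% in part 3 of the same arm, with 53 of 146. Over the 4 arms it was 27.9%. These parts were picked as the lowest and highest after their values were seen. The gap rule lets a smaller share pass where peaks lie closer together.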
